A study of Mus musculus with 7 samples.

Results

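The 8 transcription factors described here, Tcf7, Lef1, Bach2, Satb1, Bcl6, Myb, Eomes and Ets1, keep T cells in resting, progenitor-like or memory-like states. They were chosen by name, with earlier results of these data known. All 8 of them were found among the 51138 genes of the count table and among the 15954 genes that could be tested. RNA was counted in regulatory T cells (Tregs) sorted from the spleens of C57/BL6 mice that carried a red fluorescent reporter of Foxp3 (RFP-FoxP3). In the FP group (4 samples) the mice had been given 20 ug of an IL-2/CD25 fusion protein, and in the PBS group (3 samples) they had been given 100 uL of PBS. Cells were taken 72 h after the injection in both groups, and both groups carried the reporter. The labels give no ages or sexes. The labels number the replicates but do not state whether 1 mouse gave 1 sample, so p-values cover the spread between samples, which may be technical.

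TCF-1, the product of Tcf7, and LEF1 are related HMG-box factors that bind the same DNA motif, recruit beta-catenin or TLE repressors, and mark naive and stem-like T cells. BACH2, BCL6 and SATB1 are repressors or chromatin organisers: BACH2 holds back the effector programme of Tregs, BCL6 opposes Blimp-1 (Prdm1) and drives follicular T cells, and SATB1 folds chromatin in T cell precursors. MYB and ETS1 act in T cell development and survival, and EOMES is a T-box factor of memory T cells and NK cells. IL-2 signals through STAT5, which binds the palindrome TTCNNNGAA. The same letters are also the core bound by BCL6.

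Of the 8 genes, 5 were lower after FP (Bcl6, Eomes, Tcf7, Bach2 and Satb1), 1 was higher (Myb) and 2 did not pass the test (Lef1 and Ets1). The test was edgeR's quasi-likelihood test with Benjamini-Hochberg adjustment over all genes tested and a threshold of 0.05. It called 39.5% of all tested genes, with 18.5% of all tested genes lower and 21% higher after FP. The median log2 fold change (FP over PBS) of the 8 genes was -0.58, and that of all tested genes was -0.05. All 4 FP libraries lay below all 3 PBS libraries for 6 of the 8 genes, which held for 23.5% of all tested genes, and above them for 1. Groups that did not overlap in either direction were found for 7 of the 8 genes and for 46.7% of all tested genes. Total RNA of a sorted population was counted, so fewer cells that express a gene and less RNA per cell cannot be told apart.

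**Figure D1:**
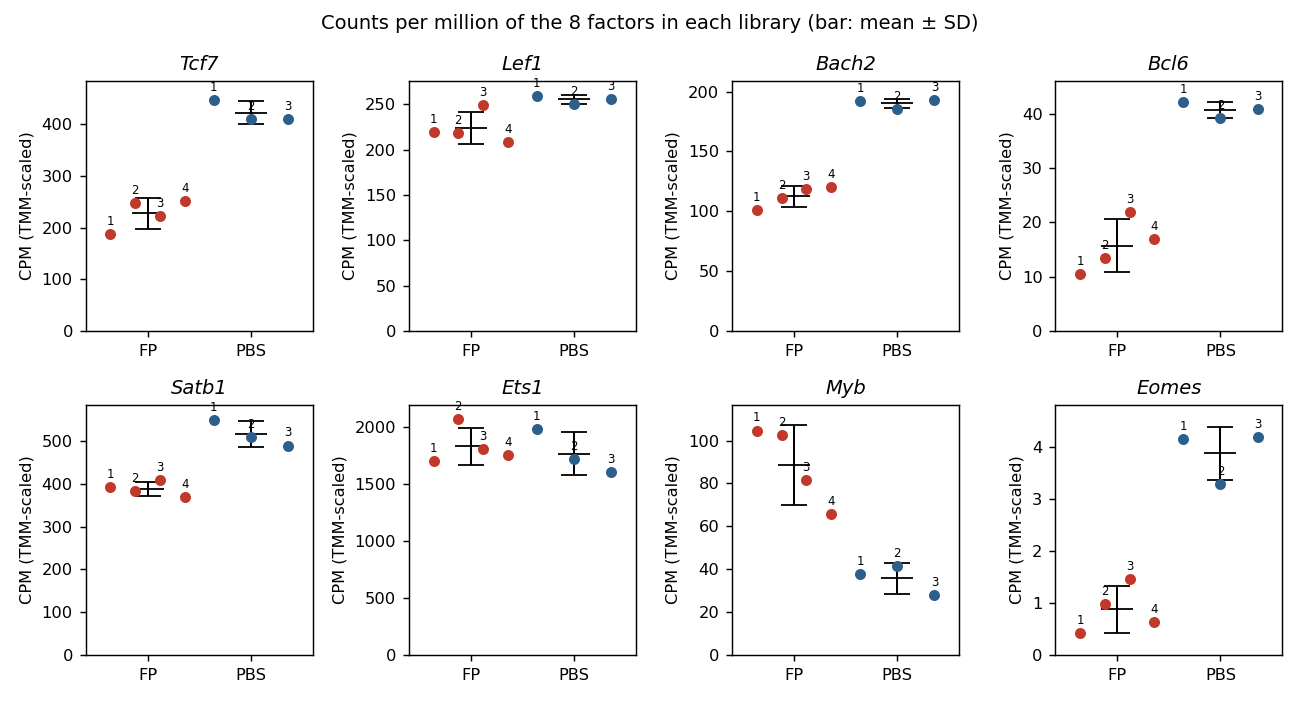
Level in CPM (counts scaled to library size with TMM factors, y axis starting at 0) of the 8 factors in each FP library (red) and PBS library (blue), numbered by replicate, with the mean ± SD of each group. The 4 FP libraries lie below the 3 PBS libraries for Tcf7, Lef1, Bach2, Bcl6, Satb1 and Eomes, above them for Myb, and among them for Ets1.

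Promoter windows of the 2 factors whose windows held the STAT palindrome are shown first. Both genes were lower after FP, but so were Tcf7, Satb1 and Eomes, whose windows held no such palindrome. The RefSeq promoter table (build GRCm38.p6) matched 7 of the 8 genes, with 16 windows in all, each of 250 bases before and 50 bases after an annotated start. Among all 32851 windows of the table, TTCNNNGAA was found in 8.3%, and 11 windows (0.0335%) held 3 or more matches. The 3 sequences below are the 250 bases upstream of a start, 5′ to 3′ on the strand of the gene, with TTCNNNGAA matches in capitals and no base in an annotated exon of the gene.
Bach2 window, plus strand, GRCm38.p6 chr4:32417185-32417434: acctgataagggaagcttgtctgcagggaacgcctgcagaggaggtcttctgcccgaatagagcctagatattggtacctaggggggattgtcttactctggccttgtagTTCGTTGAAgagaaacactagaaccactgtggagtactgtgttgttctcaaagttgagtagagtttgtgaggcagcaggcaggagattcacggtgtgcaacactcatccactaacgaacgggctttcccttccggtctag
Bcl6 window, minus strand, GRCm38.p6 chr16:23988853-23989102: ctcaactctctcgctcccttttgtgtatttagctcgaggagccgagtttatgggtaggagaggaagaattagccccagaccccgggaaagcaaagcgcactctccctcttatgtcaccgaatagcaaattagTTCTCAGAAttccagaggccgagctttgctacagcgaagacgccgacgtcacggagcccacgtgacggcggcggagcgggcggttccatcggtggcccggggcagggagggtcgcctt
Bcl6 window at an internal start, minus strand, GRCm38.p6 chr16:23981284-23981533: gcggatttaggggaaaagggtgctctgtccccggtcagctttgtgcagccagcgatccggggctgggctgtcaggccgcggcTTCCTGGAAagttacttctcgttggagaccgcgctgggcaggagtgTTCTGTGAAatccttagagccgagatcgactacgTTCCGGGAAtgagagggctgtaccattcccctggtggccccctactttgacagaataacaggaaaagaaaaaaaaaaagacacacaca
The single match begins at -140 in the Bach2 window and at -118 in the Bcl6 window at the start of the gene. The window of the internal Bcl6 start holds 3 matches, which begin at -168, -122 and -88. The Bach2 window lies within the annotated gene, upstream of an internal start.

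The other motifs were searched in the same way on both strands. The TCF/LEF core CTTTGA was found in 3 of the 16 windows (of Lef1, Bach2 and Bcl6) and in 16% of all windows. The ETS core CCGGAA was found in 4 of the 16 windows and in 14.9% of all windows, and 1 of these matches overlaps the STAT match at -88 of the internal Bcl6 start. The E-box CACGTG was found in 2 windows (7.15% of all) and the FOXO motif GTAAACA in 2 windows, of Myb and Tcf7 (3.65% of all). The AP-1 motif TGANTCA, the E2F motif TTTGGCGC and the cyclic AMP response motif TGACGTCA had 0 matches in the 16 windows, against 7.81%, 0.514% and 1.79% of all windows. A match describes letters in a window and is not a site of binding.

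The total count ran between 9956509 and 13429878 per library, and a count of 0 allows up to 0.214 to 0.322 CPM. Marker genes were used to check the identity of the sort. The summed level of 6 Treg markers was 4254 to 4948 CPM in FP libraries and 2367 to 2626 CPM in PBS libraries. Foxp3 itself averaged 540 ± 52.9 CPM in FP (SD, n = 4) and 491 ± 7.24 CPM in PBS (SD, n = 3). It did not pass (edgeR adjusted p = 0.292). Il2ra alone averaged 1938 CPM in FP and 602 CPM in PBS, so the Treg sum does not measure the share of Tregs. The summed level of 6 T cell markers overlapped between the groups, at 2416 to 3063 CPM in FP and 2230 to 2565 CPM in PBS. Of 12 monocyte and macrophage markers, 12 were lower after FP, where 18.5% of all tested genes were lower. The summed levels of these 12 were 19.3 to 106 CPM in FP and 504 to 1261 CPM in PBS. Of 6 dendritic cell markers, 3 could be tested and 3 were lower, with summed levels of 11.7 to 15.7 CPM in FP and 24.4 to 35.6 CPM in PBS. Zbtb46 made up most of this sum (11.2 CPM in FP and 19.98 CPM in PBS). Among the untested markers, Flt3 (4 counts in FP and 16 in PBS) and Siglech (5 and 36) were lower in FP. Xcr1 (32 and 19) went the other way. Neutrophil markers summed to 0.752 to 2.04 CPM in FP and 2.21 to 9.90 CPM in PBS, B cell markers to 30.6 to 40.0 CPM in FP and 31.5 to 56.0 CPM in PBS, plasma cell markers to 2.75 to 4.21 CPM in FP and 1.94 to 4.82 CPM in PBS, and erythroid markers to 7.60 to 13.6 CPM in FP and 8.30 to 19.4 CPM in PBS. The neutrophil sum was higher in PBS through Csf3r alone (21 counts in FP and 220 in PBS). S100a8 (6 counts in FP and 0 in PBS), S100a9 (18 and 2) and Ly6g (13 and 0) went the other way, and Retnlg had no counts. The part of these cell types in the differences of the 8 factors was not tested. The median of all log2 fold changes depended on the scaling and was -0.25 with upper-quartile scaling and -0.31 with scaling by library size only, against -0.05 with TMM factors. Under these scalings 33.2% and 28.6% of the calls were higher after FP, against 53.2% with TMM.

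Tcf7 (ENSMUSG00000000782.15, GRCm38 chromosome 11, 52252371 to 52283014, minus strand) had 187, 248, 223 and 252 CPM in FP replicates 1 to 4, against 447, 411 and 409 CPM in PBS replicates 1 to 3. The highest FP library lay well below the lowest PBS library. Tcf7 averaged 228 ± 29.7 CPM in FP (SD, n = 4) and 422 ± 21.6 CPM in PBS (SD, n = 3). It fell to 0.539 of the PBS level, a log2 fold change of -0.89 (SE 0.11, 95% confidence interval -1.14 to -0.64, edgeR adjusted p = 0.00022).

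Lef1 (ENSMUSG00000027985.14, chromosome 3, 131110471 to 131224356, plus strand), which encodes the close relative of TCF-1, had 219, 218, 249 and 209 CPM in FP, against 259, 250 and 256 CPM in PBS. The groups did not overlap, but FP replicate 3 came within a few CPM of the lowest PBS library. The log2 fold change was -0.19 (SE 0.09, 95% confidence interval -0.38 to 0.00425) and did not pass (edgeR adjusted p = 0.109). Under upper-quartile scaling Lef1 was called lower (-0.39, edgeR adjusted p = 0.00609), where 45.3% of all tested genes were called in either direction, and under scaling by library size only it was called lower too (-0.46, edgeR adjusted p = 0.00986), with 44.3% of all tested genes called. The median of all genes is shifted in the same direction under both.

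The balance of both factors differed between the groups. The ratio of Tcf7 to Lef1 counts within a library was 0.857, 1.14, 0.893 and 1.21 in FP, against 1.72, 1.64 and 1.6 in PBS. Every FP ratio was below every PBS ratio (log2 difference -0.71, exact permutation p = 0.0286, 0.0381 after adjustment over the 12 ratios tested). This p is the smallest that the 35 assignments of 7 libraries can give. Per kilobase of exon, Tcf7 made up 76.7 ± 3.03% of the level of the 4 TCF/LEF genes in FP (SD, n = 4) and 83.2 ± 0.961% in PBS (SD, n = 3). Lef1 made up 22.8 ± 2.99% in FP and 15.03 ± 0.418% in PBS (same n). With the longest transcript as length, Tcf7 made up 59.6 ± 4.10% in FP and 68.9 ± 1.49% in PBS. Lef1 then made up 39.8 ± 4.08% in FP and 28.2 ± 0.578% in PBS, so the size of the shares depends on the length used. These shares were not tested.

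The other TCF/LEF genes were at lower levels. Tcf7l2 averaged 1.71 ± 0.222 CPM in FP (SD, n = 4) and 24.2 ± 10.8 CPM in PBS (SD, n = 3), with 13.4, 34.97 and 24.3 CPM in PBS replicates 1 to 3. It fell by 3.82 on the log2 scale (edgeR adjusted p = 1.97e-05), and its order among the PBS libraries was that of the summed macrophage markers (504, 1261 and 881 CPM). The part of these markers in the Tcf7l2 difference was not tested. Tcf7l1 measured 1.39 ± 0.677 CPM in FP and 2.40 ± 0.186 CPM in PBS (log2 fold change -0.81, edgeR adjusted p = 0.115), and it was called lower without FP replicate 2 (adjusted p = 0.0364). Scaling by upper quartiles (-1.03, adjusted p = 0.0416) or by library size only (-1.10, adjusted p = 0.0306) also gave this call.

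Bach2 (ENSMUSG00000040270.16, chromosome 4, 32238804 to 32586108, plus strand) had 101, 111, 119 and 120 CPM in FP, against 192, 185 and 193 CPM in PBS. All FP libraries were far below all PBS libraries, and the spread within each group was small. The means were 113 ± 8.70 CPM in FP (SD, n = 4) and 190 ± 4.16 CPM in PBS (SD, n = 3), and Bach2 fell to 0.594 of the PBS level (log2 fold change -0.75, SE 0.09, edgeR adjusted p = 0.000121).

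Bach1, the more widely expressed relative that binds the same elements, averaged 42.3 ± 2.34 CPM in FP and 41.8 ± 1.41 CPM in PBS (log2 fold change 0.02, edgeR adjusted p = 0.908; -0.19 with upper-quartile scaling). The ratio of Bach2 to Bach1 counts had a geometric mean of 2.66 in FP and 4.54 in PBS, and all FP libraries lay below all PBS libraries (log2 difference -0.77, exact permutation p = 0.0286, adjusted p = 0.0381).

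Satb1 (ENSMUSG00000023927.15, chromosome 17, 51736187 to 51833290, minus strand) had 391, 382, 409 and 369 CPM in FP, against 548, 510 and 489 CPM in PBS. The groups did not overlap. Satb1 averaged 388 ± 16.8 CPM in FP (SD, n = 4) and 516 ± 29.7 CPM in PBS (SD, n = 3), a fall to 0.752 of the PBS level (log2 fold change -0.41, SE 0.09, edgeR adjusted p = 0.00403). FOXP3 is known to hold Satb1 down in mature Tregs, so Satb1 was also read against Foxp3. The ratio of Satb1 to Foxp3 counts had a geometric mean of 0.720 in FP and 1.049 in PBS, with no overlap between the groups (log2 difference -0.54, exact permutation p = 0.0286, adjusted p = 0.0381).

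Bcl6 (ENSMUSG00000022508.5, chromosome 16, 23965052 to 23988852, minus strand) had 10.5, 13.5, 21.9 and 17.0 CPM in FP, against 42.2, 39.3 and 40.8 CPM in PBS. The FP libraries differed among themselves, with replicate 3 the highest and replicate 1 the lowest, yet each lay below the PBS libraries. Bcl6 averaged 15.7 ± 4.88 CPM in FP (SD, n = 4) and 40.8 ± 1.47 CPM in PBS (SD, n = 3) and fell to 0.388 of the PBS level (log2 fold change -1.37, SE 0.20, 95% confidence interval -1.82 to -0.92, edgeR adjusted p = 0.000603). Macrophages also express Bcl6. It stayed at 39.3 to 42.2 CPM in the PBS libraries while the macrophage markers varied 2.5-fold among them, and their part in the Bcl6 difference was not tested. The relative Bcl6b had 12 counts in FP and 12 in PBS and was too low to be tested.

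Blimp-1, encoded by Prdm1, is the effector factor that BCL6 and BACH2 repress and that represses Bcl6 in turn. Prdm1 averaged 63.6 ± 7.10 CPM in FP (SD, n = 4) and 32.1 ± 1.71 CPM in PBS (SD, n = 3), a rise of 0.98 on the log2 scale (SE 0.11, edgeR adjusted p = 0.000124). The ratio of Bcl6 to Prdm1 counts was 0.148, 0.202, 0.361 and 0.309 in FP, against 1.24, 1.26 and 1.31 in PBS. Prdm1 thus had more counts than Bcl6 in all 4 FP libraries and fewer in all 3 PBS libraries. The log2 difference was -2.40 (exact permutation p = 0.0286, adjusted p = 0.0381). The ratio of Tcf7 to Prdm1 counts was 2.62, 3.71, 3.66 and 4.55 in FP, against 13.1, 13.2 and 13.1 in PBS (log2 difference -1.88), and that of Bach2 to Prdm1 counts had a geometric mean of 1.78 in FP and 5.92 in PBS (log2 difference -1.74). Both had the same exact permutation p of 0.0286. These ratios share Prdm1 and are not independent. Bcl6, Tcf7 and Bach2 lay lower and Prdm1 higher in each FP library than in each PBS library. The ratios could therefore not overlap between the groups, and their p-values add no support beyond those levels.

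Myb (ENSMUSG00000019982.15, chromosome 10, 21124935 to 21160984, minus strand) was the only one of the 8 genes that rose. It had 105, 103, 81.5 and 65.6 CPM in FP, against 37.7, 41.6 and 27.8 CPM in PBS. Each FP library lay above each PBS library. Myb averaged 88.6 ± 18.6 CPM in FP (SD, n = 4) and 35.7 ± 7.07 CPM in PBS (SD, n = 3), 2.48 times the PBS level (log2 fold change 1.31, SE 0.19, 95% confidence interval 0.89 to 1.73, edgeR adjusted p = 0.000567).

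Both relatives of Myb rose further. Mybl2, the B-Myb factor of dividing cells, had 31.7, 36.8, 42.9 and 21.6 CPM in FP, against 2.21, 3.52 and 3.503 CPM in PBS (log2 fold change 3.42, SE 0.27, edgeR adjusted p = 1.46e-05). Mybl1 averaged 12.0 ± 2.83 CPM in FP and 1.53 ± 0.185 CPM in PBS (log2 fold change 2.96, edgeR adjusted p = 1.92e-05). The ratio of Myb to Mybl2 counts had a geometric mean of 2.70 in FP and 11.6 in PBS (log2 difference -2.10, exact permutation p = 0.0286, adjusted p = 0.0381). Per kilobase of exon, Myb made up 51.6 ± 6.11% of the level of the 3 MYB genes in FP (SD, n = 4) and 80.5 ± 5.32% in PBS (SD, n = 3), although its own level was higher in FP. With the longest transcript as length, its share was 67.6 ± 5.51% in FP and 89.1 ± 3.34% in PBS.

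Eomes (ENSMUSG00000032446.14, chromosome 9, 118478212 to 118486132, plus strand) was the scarcest of the 8 genes, with 4, 11, 16 and 9 counts in FP libraries and 47, 45 and 48 counts in PBS libraries. These are 0.430, 0.977, 1.47 and 0.642 CPM in FP, against 4.15, 3.30 and 4.20 CPM in PBS, and the groups did not overlap. The log2 fold change was -2.12 (SE 0.35, 95% confidence interval -2.89 to -1.36, edgeR adjusted p = 0.000981). The summed counts of 40 in FP and 140 in PBS gave a ratio of 0.228 after scaling to depth, with a 95% counting interval of 0.157 to 0.327 that covers counting error only.

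NK cells and CD8 T cells also use Eomes, and the NK cell markers were near the limit of detection. Of 5 NK cell markers, 0 had enough counts to be tested, Klra8 and Klra4 were at 0 in all libraries, Ncr1 had 4 counts in FP and 0 in PBS, and Klrb1c had 11 counts in FP and 45 in PBS. The summed NK markers were 0.0916 to 0.537 CPM in FP and 0.733 to 1.75 CPM in PBS, below the level of Eomes in PBS. Their part in the Eomes difference was not tested. The summed CD8 markers overlapped between the groups, at 7.84 to 12.9 CPM in FP and 8.93 to 9.80 CPM in PBS.

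Tbx21, which encodes the related factor T-bet of type 1 effector cells, moved the other way. It averaged 12.7 ± 1.99 CPM in FP (SD, n = 4) and 5.80 ± 0.702 CPM in PBS (SD, n = 3), a rise of 1.14 on the log2 scale (SE 0.18, edgeR adjusted p = 0.000917). The ratio of Eomes to Tbx21 counts was 0.0462, 0.0836, 0.114 and 0.0445 in FP, against 0.674, 0.664 and 0.678 in PBS. This was the largest difference among the 12 ratios (log2 difference -3.34, exact permutation p = 0.0286, adjusted p = 0.0381). Eomes lay lower and Tbx21 higher in each FP library than in each PBS library. The ratio could therefore not overlap between the groups, and its p adds no support beyond those levels. Tbr1, the remaining gene of this group, had a log2 fold change of 0.32 (edgeR adjusted p = 0.616; -0.23 without FP replicate 1).

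Ets1 (ENSMUSG00000032035.15, chromosome 9, 32636221 to 32757820, plus strand) was the most abundant of the 8 genes, with 1702, 2069, 1809 and 1758 CPM in FP, against 1983, 1717 and 1608 CPM in PBS. The groups overlapped. Ets1 averaged 1834 ± 162 CPM in FP (SD, n = 4) and 1769 ± 193 CPM in PBS (SD, n = 3), with a log2 fold change of 0.05 (SE 0.11, 95% confidence interval -0.20 to 0.30, edgeR adjusted p = 0.741) that was -0.15 with upper-quartile scaling, -0.0094 without FP replicate 2 and -0.013 without PBS replicate 3. Per kilobase of exon it made up 38.9 ± 0.810% of the level of the 26 ETS genes in FP and 40.1 ± 2.24% in PBS. With the longest transcript as length, its share was 45.8 ± 0.931% in FP and 46.1 ± 2.45% in PBS.

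Of the 18 ETS genes tested, Ets1 among them, 6 were higher after FP, 5 were lower and 7 did not pass, where 21% of all tested genes were higher and 18.5% lower. Fli1, which binds the same core motif, averaged 216 ± 23.4 CPM in FP (SD, n = 4) and 139 ± 11.04 CPM in PBS (SD, n = 3), a rise of 0.64 on the log2 scale (edgeR adjusted p = 0.00107). The ratio of Ets1 to Fli1 counts had a geometric mean of 8.50 in FP and 12.7 in PBS (log2 difference -0.58, exact permutation p = 0.0286, adjusted p = 0.0381). Against Ets2, the nearest relative of Ets1, the ratio did not pass (log2 difference -0.42, exact permutation p = 0.0857, adjusted p = 0.103). Elf4, known for keeping CD8 T cells quiescent, rose by 0.57, with an adjusted p of 0.07 when only library size was used for scaling.

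Several smaller changes among ETS genes lost their call without single libraries. Etv6 (0.38), Elf1 (0.34), Gabpa (0.29) and Ets2 (0.48) were higher after FP by edgeR. Etv6 lost its call without PBS replicate 3 (adjusted p = 0.0524), and Elf1 (0.0933 and 0.101) and Gabpa (0.0754 and 0.0899) did not pass without PBS replicate 2 or 3. Ets2 lost its call without each single library other than FP replicate 4 and PBS replicate 1 (adjusted p 0.0748 to 0.166). Erf fell by 0.55 and lost its call without PBS replicate 1 (-0.47, adjusted p = 0.0524) or 2 (-0.53, adjusted p = 0.0513). Elk3 fell by 0.30, but with a library left out it kept its call only without FP replicate 2 or 4 (otherwise 0.056 to 0.118), and it did not pass by DESeq2 (adjusted p = 0.0751). Etv6, Elf1, Gabpa and Ets2 also lost their calls under both other scalings named above.

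The ETS genes with the largest falls included factors of other blood cells. Spic and Spi1, which act in macrophages and other myeloid cells, fell by 4.90 and 2.96 on the log2 scale, in the libraries where the 12 macrophage markers were also lower. The part of these markers in both differences was not tested. Etv1 fell by 1.76, with 17 counts in FP and 47 in PBS. Those that did not pass besides Ets1 were Etv3 (0.23), Etv4 (0.12), Elf2 (-0.05), Elk4 (-0.19), Elk1 (-0.48) and Etv5 (-0.54). Etv5 was called lower without FP replicate 2 (adjusted p = 0.0125), Etv3 as higher without FP replicate 4 (0.0428), and Elk1 as lower without FP replicate 4 (0.0187) or PBS replicate 1 (0.0426). With upper-quartile scaling and with library size only, 4 of them were called lower, namely Elf2 (-0.26 and -0.32), Elk4 (-0.39 and -0.45), Elk1 (-0.67 and -0.73) and Etv5 (-0.76 and -0.83), with adjusted p-values of 0.00493 to 0.0381.

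**Figure D2:**
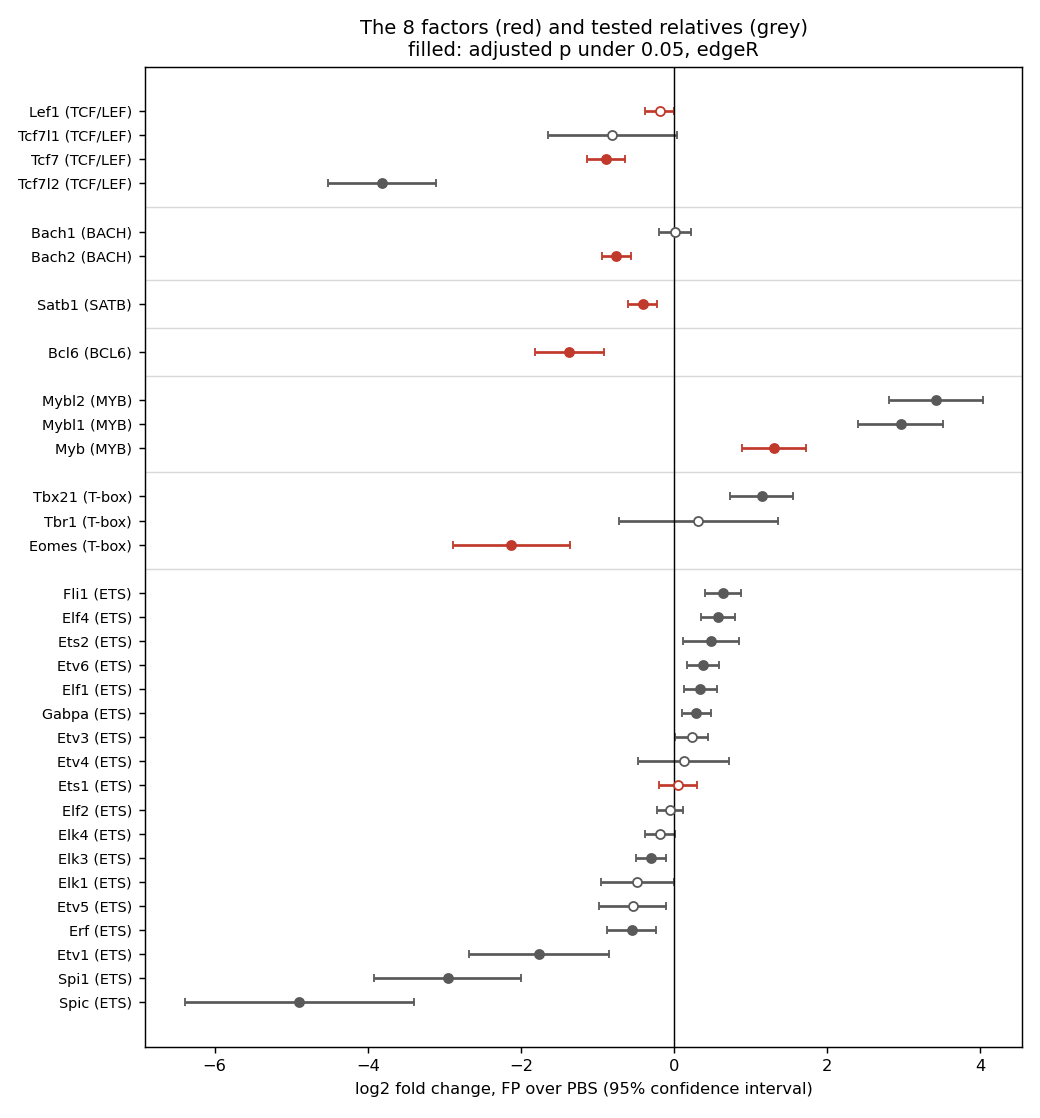
Log2 fold change, FP over PBS, with its 95% confidence interval (x axis) for the 8 factors (red) and tested relatives (grey), grouped by family. Filled points had an edgeR adjusted p under 0.05. Tcf7, Bach2, Satb1, Bcl6 and Eomes lie left of 0, Myb lies right of 0 with both of its relatives further right, and Ets1 lies at 0.05 in the middle of the ETS genes.

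Among the 34 relatives as a whole, 25 could be tested, 9 were higher, 7 lower and 9 did not pass, where 39.5% of all tested genes were called. Their median log2 fold change was 0.02. With the 8 factors counted in, 3 of 3 MYB genes rose, 2 of 4 TCF/LEF genes fell and the other 2 did not pass, and of the 3 T-box genes 1 rose and 1 fell.

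The 8 genes spanned a wide range of levels. Levels as TMM-scaled CPM per kilobase of exon in FP and PBS libraries were 216 and 209 for Ets1, 86.7 and 161 for Tcf7, 25.4 and 29.0 for Lef1, and 20.4 and 27.1 for Satb1. They were 11.3 in FP and 19.1 in PBS for Bach2, 9.92 in FP and 3.998 in PBS for Myb, 2.35 in FP and 6.09 in PBS for Bcl6, and 0.211 in FP and 0.935 in PBS for Eomes. Foxp3, for comparison, was at 118 in FP and 107 in PBS. The order of the group means was Ets1, Tcf7, Lef1, Satb1, Bach2, Myb, Bcl6 and Eomes in FP, and in PBS Bcl6 stood above Myb. In FP libraries Ets1 lay above 99.0% of all tested genes and Tcf7 above 97.0%, while Eomes lay above 4.11%. Bcl6 lay above 32.6% of tested genes in FP and 56.0% in PBS, and Myb above 68.0% in FP and 44.1% in PBS. With the longest annotated transcript in place of all exons, Satb1 (82.6 ± 4.75) lay above Lef1 (69.8 ± 1.24) in PBS. In FP, Satb1 (62.1 ± 2.69) and Lef1 (61.2 ± 4.82) then did not differ beyond their spread. The order of Lef1 and Satb1 thus depends on the length used. Per kilobase of exon in FP, Bach2 (11.3 ± 0.875) and Myb (9.92 ± 2.08) did not differ beyond their spread. With the longest transcript as length, Myb (23.99 ± 5.03) lay above Bach2 (12.7 ± 0.98) in FP. The order of Bach2 and Myb in FP thus also depends on the length used. In PBS, Bcl6 (10.4 ± 0.373) and Myb (9.67 ± 1.92) did not differ beyond their spread with the longest transcript as length.

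The coefficient of variation over replicates was 51.4% in FP and 13.1% in PBS for Eomes and 31.0% in FP and 3.60% in PBS for Bcl6. It was 13.1% in FP and 5.12% in PBS for Tcf7, 7.87% in FP and 1.77% in PBS for Lef1, and 7.72% in FP and 2.19% in PBS for Bach2. It was 8.85% in FP and 10.9% in PBS for Ets1, 4.32% in FP and 5.75% in PBS for Satb1, and 20.96% in FP and 19.8% in PBS for Myb. Among the FP libraries, replicate 1 had the lowest level of Tcf7, Bach2, Bcl6 and Eomes and the highest of Myb.

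**Figure D3:**
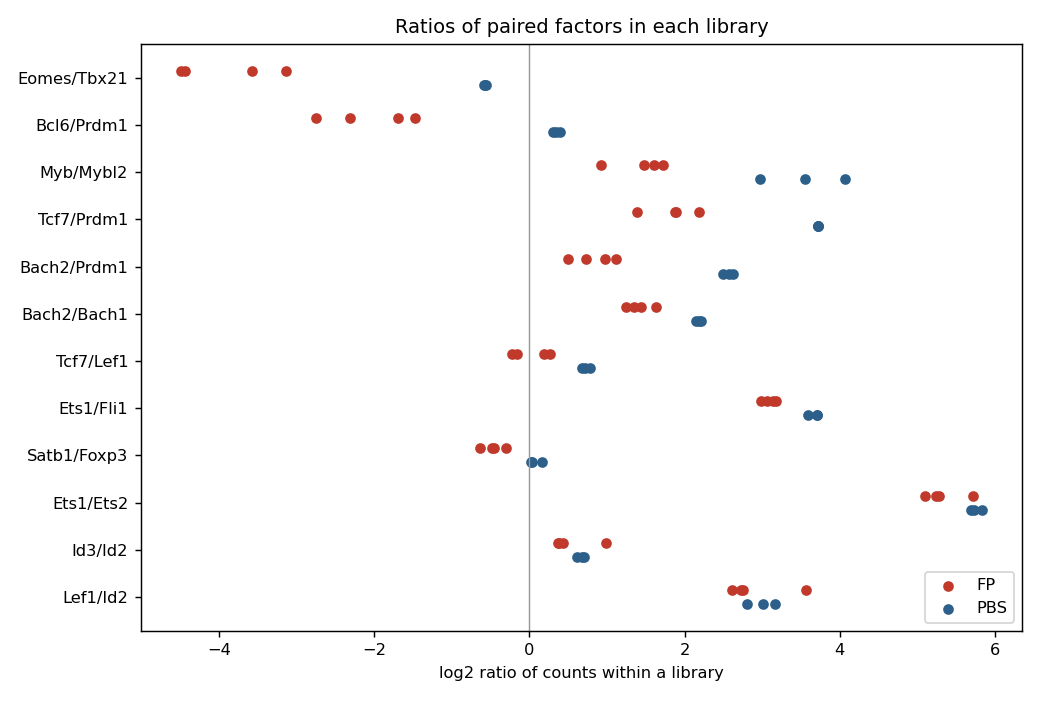
Log2 ratio of the counts of 2 factors within each library (x axis) for the 12 pairs tested, with FP libraries (red) above PBS libraries (blue) in each row. The groups do not overlap in the 9 upper rows, from Eomes/Tbx21 to Satb1/Foxp3, and overlap in Ets1/Ets2, Id3/Id2 and Lef1/Id2.

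Id2 and Id3 encode inhibitors of E proteins and accompany effector and resting states. Ratios with Id2 did not pass. The log2 difference was -0.12 for Id3 over Id2 (exact permutation p = 0.6, adjusted p = 0.655) and -0.08 for Lef1 over Id2 (exact permutation p = 0.8, adjusted p = 0.8). Id3 had a log2 fold change of -0.24 (edgeR adjusted p = 0.0863) and was called lower with upper-quartile scaling (-0.44, adjusted p = 0.00269) and with library size only (-0.51, adjusted p = 0.00274). Id2 had one of -0.09 (edgeR adjusted p = 0.698; 0.05 without FP replicate 3).

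The annotation holds 17 further transcripts within or across the 8 genes, of which 16 could be tested. They were chosen after their counts were seen. Of these, 10 were lower, 1 was higher and 5 did not pass, and each of the 11 that passed went the way of its host gene. Of all tested genes, 18.5% were lower and 21% higher. Many of these transcripts lie on the strand of their host and inside it, where reads of unspliced host RNA could be counted as theirs. The shared direction is therefore not independent of the host genes. At Satb1, 5 of 6 transcripts were lower (log2 fold changes of the 6 from -0.79 to -0.32), while Gm37248 did not pass (adjusted p = 0.0723) until FP replicate 1 was left out (0.0487) or upper-quartile scaling (0.0113) or library size only (0.00736) was used. At Bach2 all 3 were lower, namely Bach2it1 (-0.55), Gm24371 (-0.92) and the antisense transcript Bach2os (-0.79). At Tcf7 both Gm26551 (-0.91) and A630014C17Rik (-1.02) were lower, and at Myb the transcript Gm26577 was higher (1.09).

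Several of these calls were lost without single PBS libraries. Bach2it1 lost its call without PBS replicate 1 (adjusted p = 0.0715), 2 (0.0561) or 3 (0.113), Gm24371 and Gm26551 without PBS replicate 2 (0.0564 and 0.0508) or 3 (0.12 and 0.0816), and Gm26577 without PBS replicate 1 (0.055) and with library size only (0.0717). At Satb1, E430014B02Rik lost its call without PBS replicate 1 (0.0556) and 5830444F18Rik without PBS replicate 1 (0.126) or 2 (0.0828). At Lef1, Ets1 and Bcl6, the tested transcripts did not pass: Gm42449 (-0.46), Gm43352 (0.01), Gm27240 (-0.31) and Gm37419 (-0.39). Exons were shared over 1208 bases between Lef1 and Gm43352, 559 bases between Myb and Gm26577, 537 bases between Bach2 and Bach2os, 156 bases between Satb1 and Gm36931, 128 bases between Satb1 and Gm6934, 118 bases between Eomes and Gm33460, and 21 bases between Bcl6 and Gm37419. Reads of such stretches could be split between both. The strand setting of the counting is not given in the sources used here, so reads of a gene and of a transcript on its other strand cannot be told apart.

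**Figure D4:**
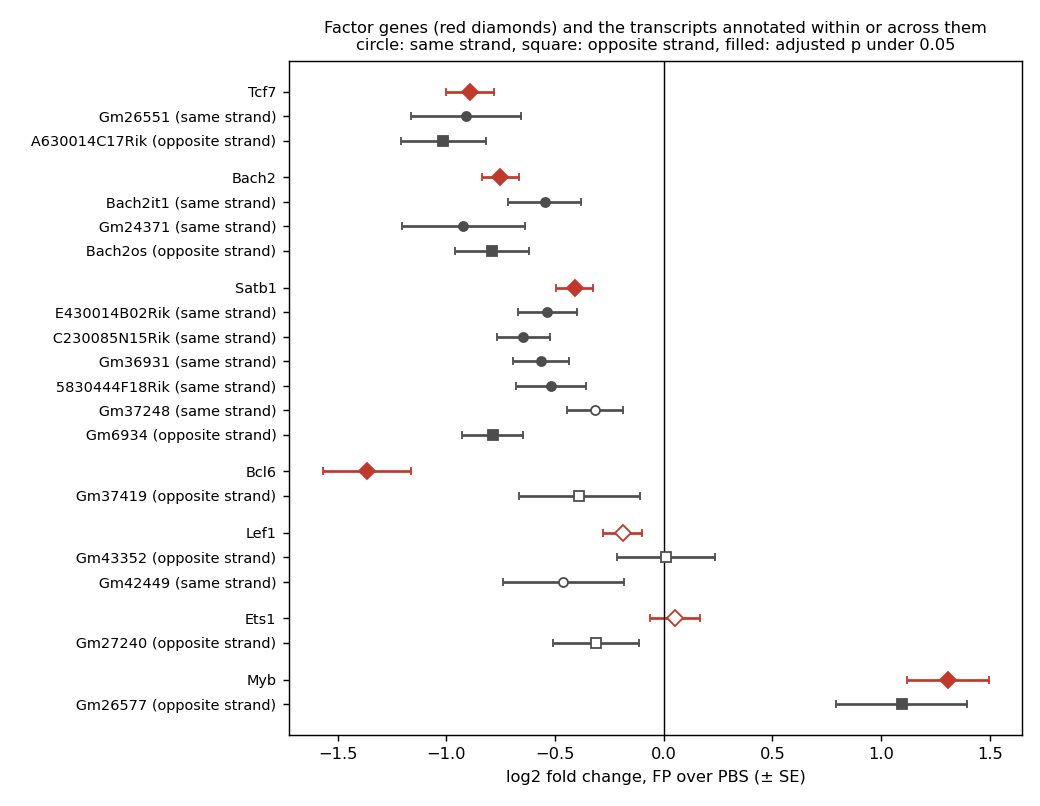
Log2 fold change, FP over PBS, with its SE (x axis) for the factor genes (red diamonds) and for the transcripts annotated within or across them (circles on the same strand, squares on the opposite strand; filled where the edgeR adjusted p was under 0.05). The transcripts at Tcf7, Bach2 and Satb1 lie left of 0 with their host genes, and Gm26577 lies right of 0 with Myb.

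The pathway around the factors was followed with 6 lists, given by counts and medians beside the median of all genes, -0.05, and the 39.5% of all tested genes that were called (18.5% lower, 21% higher). Of 19 resting T cell genes tested, 7 were lower, 2 were higher and 10 did not pass (median -0.21). The cytoskeletal gene Actn1 fell to 99.3 ± 9.28 CPM in FP (SD, n = 4), against 192 ± 20.3 CPM in PBS (SD, n = 3), a log2 fold change of -0.95 (edgeR adjusted p = 8.6e-05). Il7r, the IL-7 receptor chain of resting T cells, fell by 1.17, Il6ra by 0.68 and the quiescence factor gene Foxp1 by 0.58. The lymph node homing receptor gene Ccr7 fell by 0.80. The 2 that rose were Slamf6 (0.30) and Txk (0.49); Slamf6, Txk and Ccr7 were picked with their values known. Slamf6 was 0.094 with upper-quartile scaling (adjusted p = 0.424) and 0.027 with library size only (0.86), and it lost its call without PBS replicate 1 (0.0507) or 2 (0.107). Txk lost its call with library size only (0.22, adjusted p = 0.154).

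Of 15 effector factors, 9 were higher, 2 were lower and 4 did not pass (median 0.51). Besides Prdm1 and Tbx21, the hypoxia factor gene Hif1a rose by 0.85 to 365 ± 39.4 CPM in FP (SD, n = 4), against 203 ± 22.5 CPM in PBS (SD, n = 3), with an edgeR adjusted p = 0.000351. Ikzf2, which encodes the Treg factor Helios, rose by 0.54, and lost its call when only library size was used for scaling (adjusted p = 0.128). Zeb2 fell by 4.10, with 2.82 ± 1.38 CPM in FP and 48.5 ± 22.4 CPM in PBS, where the macrophage markers were also higher; their part in it was not tested. Tox (-0.28) fell too, but with a library left out it kept its call only without FP replicate 2 or 4 (otherwise adjusted p = 0.0537 to 0.143), and it did not pass by DESeq2 (0.0941). Those that did not pass included Id2, Rora (0.31) and Bhlhe40 (-0.04; 0.12 without PBS replicate 1). Tox, Rora and Bhlhe40 were chosen after their values were seen.

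Of 18 TCF/LEF partners tested, 3 were higher, 7 were lower and 8 did not pass (median -0.00297). Among those lower, the Wnt co-receptor gene Lrp6 fell to 103 ± 5.59 CPM in FP (SD, n = 4), against 158 ± 6.52 CPM in PBS (SD, n = 3; log2 fold change -0.61, edgeR adjusted p = 0.000278). The beta-catenin cofactor gene Bcl9 fell by 0.78. Lrp5 fell by 1.74, with 4.68 ± 0.891 CPM in FP (SD, n = 4) and 8.39, 21.8 and 16.2 CPM in PBS replicates 1 to 3. This is the order of the summed macrophage markers in those libraries, whose part in the Lrp5 difference was not tested. Those higher were Aes (0.63), a short TLE-type corepressor, Axin2 (0.59), a feedback inhibitor and known target of beta-catenin with TCF/LEF, and Ctnnb1 (0.27, but 0.063 with upper-quartile scaling and -0.0022 with library size only), which encodes beta-catenin. Axin2 averaged 83.3 ± 10.9 CPM in FP and 55.3 ± 3.03 CPM in PBS, and it lost its call when only library size was used (adjusted p = 0.102). Ctnnb1 lost its call without each single library other than FP replicate 4 and PBS replicate 1 (adjusted p 0.0506 to 0.196). Axin2 and Ctnnb1 were chosen after their values were seen.

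Of 8 BACH2 partners and competitors, 2 were higher, 1 was lower and 5 did not pass (median 0.16). Mafk, a small MAF protein that pairs with BACH2, had a log2 fold change of 0.34 (edgeR adjusted p = 0.038). It was 0.14 with upper-quartile scaling (adjusted p = 0.289) and 0.071 with library size only (0.618), and it lost its call without FP replicate 1 (0.0586) or 2 (0.0875) or PBS replicate 2 (0.126) or 3 (0.163). Keap1, which restrains the competing NRF2 factor, rose by 0.52 (adjusted p = 0.116 when only library size was used). Hmox1, a haem enzyme gene repressed by BACH factors and abundant in splenic macrophages, fell to 8.30 ± 5.71 CPM in FP (SD, n = 4), against 161 ± 67.9 CPM in PBS (SD, n = 3; log2 fold change -4.28, edgeR adjusted p = 0.00073). The part of macrophage RNA in it was not tested. Those that did not pass were Bach1, Mafg (0.29), Maff (0.31; -0.023 without FP replicate 1), Nfe2l1 (-0.14; called lower at -0.34 with upper-quartile scaling, adjusted p = 0.0191, and at -0.40 with library size only, adjusted p = 0.0202) and Nfe2l2 (0.03; -0.17 with upper-quartile scaling), the last 4 chosen after their values were seen.

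Of 8 BCL6 partners, 0 were higher, 2 were lower and 6 did not pass (median -0.04). Kdm2b, a subunit of the BCOR complex, fell by 0.34 (edgeR adjusted p = 0.00596), to 79.96 ± 0.892 CPM in FP (SD, n = 4) against 101 ± 3.80 CPM in PBS (SD, n = 3). Bcor itself had a log2 fold change of -0.26 (edgeR adjusted p = 0.0484) and kept its call only without FP replicate 2 among the sets of 6 libraries (otherwise adjusted p = 0.0769 to 0.181), and it did not pass by DESeq2 (0.152).

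BCL6 is needed for follicular Tregs. Of 7 follicular Treg genes tested, 3 were higher, 2 were lower and 2 did not pass (median 0.29). The costimulatory receptor gene Icos rose to 73.9 ± 13.7 CPM in FP (SD, n = 4), against 30.4 ± 5.88 CPM in PBS (SD, n = 3; log2 fold change 1.28, edgeR adjusted p = 0.000326). Sh2d1a (0.49) also rose, and lost its call without PBS replicate 2 (0.42, adjusted p = 0.0651) or 3 (0.48, adjusted p = 0.051), with upper-quartile scaling (0.28, adjusted p = 0.0559) and with library size only (0.21, adjusted p = 0.126). With a library left out, Angptl2 (0.49) kept its call only without FP replicate 4 (otherwise 0.059 to 0.162), and it was 0.27 with upper-quartile scaling (adjusted p = 0.129) and 0.20 with library size only (0.245). The checkpoint receptor gene Pdcd1 fell by 0.54 and the decoy receptor gene Il1r2 by 1.78. Cxcr5, the follicle homing receptor gene, had a log2 fold change of 0.29 (adjusted p = 0.119) and passed as higher without FP replicate 4 (0.0245). Tox2 (-0.40, adjusted p = 0.0971) passed as lower without FP replicate 4 (0.0497), with upper-quartile scaling (-0.61, adjusted p = 0.0209) and with library size only (-0.67, adjusted p = 0.0208). Angptl2, Cxcr5 and Tox2 were chosen after their values were seen.

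**Figure D5:**
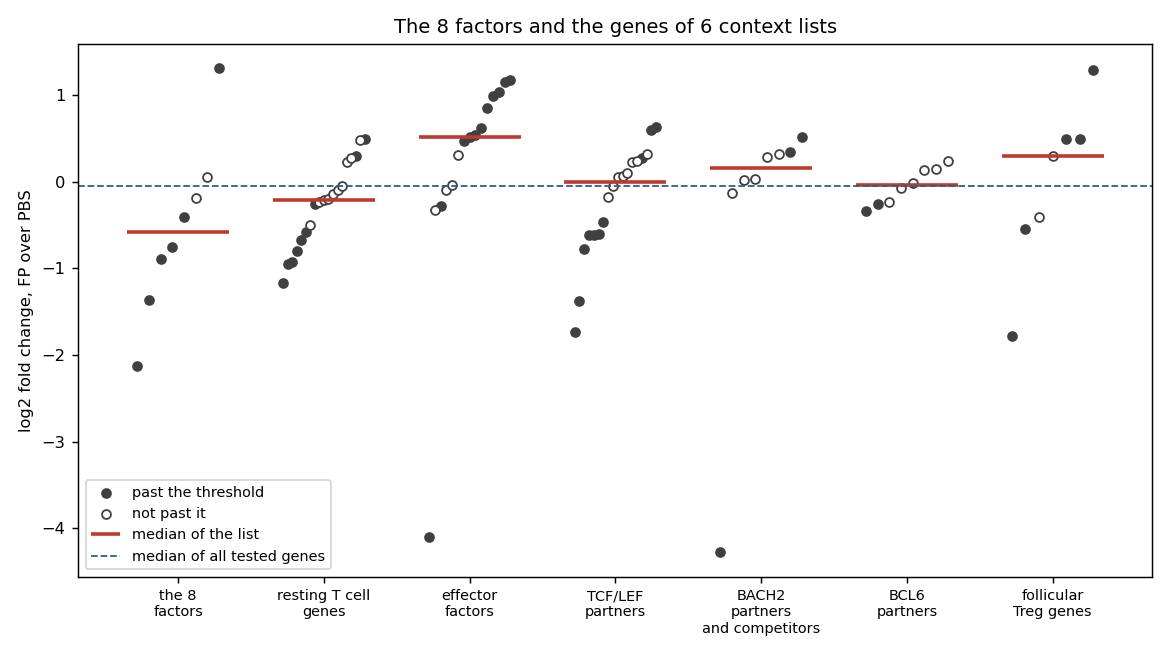
Log2 fold change, FP over PBS (y axis), of the 8 factors and of the tested genes of 6 lists, with filled points where the edgeR adjusted p was under 0.05. Red bars give the median of each list and the dashed line the median of all tested genes, -0.05; the 8 factors have a median of -0.58 and the effector factors one of 0.51.

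For the factors other than Satb1, the gene of similar level with the most similar profile over the 7 libraries was found by the root mean square distance between centred log2 CPM profiles. The distances were 0.108 for Tcf7 and Pkd1, 0.0460 for Lef1 and Sipa1l1, and 0.0520 for Bach2 and Pcnx. They were 0.173 for Bcl6 and Chst15, 0.103 for Myb and Banf1, 0.208 for Eomes and Arhgap20os, and 0.0927 for Ets1 and H2-K1. The 7 libraries share their grouping, so these distances describe likeness and nothing more.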

How the data were processed

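RNA was measured in 7 libraries of sorted splenic Tregs (4 FP, 3 PBS). Per the labels' protocols, 25 ng of total RNA per sample went into a library kit that depletes ribosomal RNA, and a NextSeq 500 was used. The authors deposited raw counts per gene, with no normalization. Per the design text and the submitters' processing notes, reads were mapped to GRCm38 with STAR (2.5.0 in the design text, 2.5.0b in the notes) and counted on GENCODE M13 genes with featureCounts 1.5.0. Whether strand was used and how reads with several positions were treated is not given in the sources used here. Symbols and positions came from GENCODE M21 of the same build, matched by gene identifier, with a symbol for 50376 of 51138 identifiers.

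Counts were filtered with filterByExpr, scaled with TMM factors and tested with the quasi-likelihood test of edgeR 4.0.16 (R 4.3.3, robust fit, 15954 genes, threshold 0.05 on the Benjamini-Hochberg adjusted p). SE values come from the quasi-likelihood F statistic. Ratios of 2 genes within a library used raw counts with 0.5 added to each and a two-sided exact permutation test over 35 assignments. Levels per length used the union of annotated exons. Alternatives were other scalings, DESeq2 1.42.0, limma-voom (limma 3.58.1), other filters, leaving out each library, and the replicate number as a block. The fit was tested on simulated counts in which 200 genes were changed and 15592 were tested. That share is far smaller than the 39.5% of genes called in the data. The adjustment is stricter where few genes change, so the recovery below is not that of the real fit. It recovered 15 of 50 genes put in with a 1.5-fold change and 30 of 48 with a 2-fold change. At 4-fold it recovered 49 of 49 and at 8-fold 49 of 50. A gene that did not pass may still have changed by a small amount.

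The factors and lists were chosen with earlier results of these data known. The rule for named genes took the 8 factors, Foxp3, their relatives with a mean of at least 1 CPM, up to 4 genes with the smallest p among those past the threshold in each list, genes used in ratios, the gene with the nearest profile (mean log2 CPM within 1), and the 2 most abundant genes of each marker list. It took 93 genes. Another 16 list genes and 17 overlapping transcripts were added after their values were seen. Some results on other genes are not reported here.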

Additional observations from a re-analysis of the deposited data

Results flagged for a closer look

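In the FP group (4 libraries), a library was looked at again where its gap to the nearest of the others, over the range of the group, was above Dixon's critical value of 0.829. This was met in 6 of 148 groups of values, and chance gives about 1 in 20. The log2 ratio of Lef1 to Id2 counts was 3.57 in FP replicate 3, above the other FP libraries, and that of Id3 to Id2 was 0.98 in the same library. E430014B02Rik, annotated within Satb1, was at 19.1 CPM in FP replicate 2, below the other FP libraries. Lrp5 was at 3.35 CPM in FP replicate 4, below the others, and Hbb-bt at 3.64 CPM in FP replicate 2, above the others. The summed B cell markers were 40.0 CPM in FP replicate 2, against 30.6 to 30.9 CPM in the other FP libraries and 31.5 to 56.0 CPM in PBS libraries.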

How the results depend on the processing

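Tcf7, Bach2, Satb1, Bcl6, Myb and Eomes kept their direction and passed under all 15 alternatives, with log2 fold changes of -1.15 to -0.80 for Tcf7, -1.01 to -0.69 for Bach2, -0.68 to -0.34 for Satb1, -1.61 to -1.21 for Bcl6, 1.02 to 1.44 for Myb and -2.47 to -1.92 for Eomes. Lef1 passed with upper-quartile scaling (-0.39) and with library size only (-0.46). Ets1 passed under 0 of 15 (edgeR, DESeq2 and limma-voom among them). It was -0.15 with upper-quartile scaling, -0.22 with library size only and -0.013 to 0.17 with a library left out. The count of all changed genes was 4088 (without PBS replicate 3) to 7277 with a library left out. That of lower genes was 1774 (without PBS replicate 3; 1869 without PBS replicate 2) to 3389, against 4823 with upper-quartile scaling and 5046 with library size only, where that of higher genes was 2023. The FP minus PBS difference in the log2 ratio of Lef1 to Id2 was -0.30 to 0.021 with a library left out. The causes were not tested.

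Among other genes, signs changed under upper-quartile scaling and under library size only for Foxp3 (-0.068 and -0.13), Bach1 (-0.19 and -0.25), Etv4 (-0.081 and -0.15), H2-K1 (-0.0034 and -0.069), Cd3e (-0.096 and -0.16), Lck (-0.12 and -0.19), Nfe2l2 (-0.17 and -0.24) and Gm43352 (-0.19 and -0.26). With library size only Etv3 was -0.047 and Ctnnb1 -0.0022. With limma-voom Derl3 was 0.021 and Gm43352 -0.00295.

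With a library left out, values that changed sign ran over -0.0036 to 0.068 for Bach1, -0.23 to 0.53 for Tbr1, -0.084 to 0.0092 for Elf2, -0.18 to 0.047 for Id2, -0.28 to 0.038 for Cd8a, -0.32 to 0.37 for Derl3, -0.10 to 0.11 for Gm43352, -0.18 to 0.12 for Bhlhe40 and -0.023 to 0.73 for Maff. None of these 9 genes was past the threshold.

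Same-numbered FP and PBS libraries deviated together with correlations of 0.325, 0.047 and 0.141, and FP replicate 2 correlated best with PBS replicate 1, so the numbers were not taken to pair the samples. With the replicate block 7870 genes were called, 6 of the 8 factors among them, Cd8a was 0.0295 and Bhlhe40 0.019. Eomes, with 40 counts in FP, is the factor whose level depth limits most.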
